A study of Mus musculus with 36 samples.

Results

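The comparison described here is that of BV-2 microglia activated with lipopolysaccharide (LPS) in the presence of dimethyl fumarate (DMF) with resting cells that received only DMSO, the vehicle of DMF, for 4 h. It takes 6 of the 36 RNA-seq libraries of the series, namely LPS_DMF replicates 1 to 3 and DMSO replicates 4 to 6, which were chosen by their labels, and all 17228 genes of their table. BV-2 is an immortalised mouse microglial cell line, labelled wild-type. LPS, from Escherichia coli, was given at 600 ng/mL and DMF at 30 µM, vehicles were held at 0.2%, and serum was lowered just before the treatment. LPS and DMF changed together in this comparison, and no group with DMF and no LPS was analysed here, so an effect of DMF alone and one that needs LPS cannot be told apart. To separate the changes that LPS alone gives, 6 other libraries of the same time point were used, LPS alone (replicates 1 to 3) against ethanol (EtOH, replicates 4 to 6). These share no library with the DMF comparison, and EtOH is the vehicle of another drug of the study. The labels do not give the vehicle of the LPS libraries, and the vehicles can differ, as for Zfp395, with 164 ± 75.9 normalized counts (SD, n = 3) under DMSO and 77.4 ± 21.0 under EtOH on a joint scale. LPS with DMF was also compared directly with LPS alone.

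LPS is a component of the bacterial outer membrane that microglia sense through the receptor Tlr4. One branch of the signal activates NF-kB and the transcription of cytokines, chemokines and its own inhibitors, and another induces type I interferon, which then switches on a large set of antiviral genes. DMF is an electrophilic ester used to treat multiple sclerosis that reacts with cysteines of Keap1. Keap1 normally holds the transcription factor Nrf2 for degradation, and Nrf2 that escapes it drives genes of glutathione and thioredoxin metabolism, haem breakdown and NADPH supply through a DNA motif called the antioxidant response element. Atf4, the factor of the integrated stress response, raises amino acid transport and synthesis genes.

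The 6 libraries held 14.95 M to 16.9 M reads counted on genes, with 14691 to 14829 genes detected and 1.97 to 2.23% of reads on mitochondrial genes. All 10 microglia and macrophage markers had at least 10 reads in every library, with a summed normalized count of 80453 to 90055 under DMSO and 73709 to 86021 under DMF. None of the 7 neuronal, 6 astrocyte or 6 lymphocyte markers reached 10 reads in every library, and the neuronal list summed to between 8.35 and 20.1 normalized counts, the astrocyte list to between 11.6 and 24.1 and the lymphocyte list to between 10.0 and 23.0. Of 6 oligodendrocyte markers 2 reached 10 reads in every library, and of 6 endothelial and fibroblast markers only Pecam1 and Cdh5, with Cldn5 and Pdgfra at 0. The summed level of the oligodendrocyte list ran from 1216 to 1276 under DMSO and from 740 to 989 under DMF. In bulk RNA, a smaller number of cells of a type and less RNA per cell cannot be told apart. LPS_DMF replicate 2 and DMSO replicate 5 stood above the other libraries of their groups in interferon-response genes. Some of the results that change without them, but not all, are given both ways.

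Of 11449 genes tested, 2690 were differentially expressed (23.5%), of which 1310 were higher with LPS and DMF (11.4%) and 1380 lower (12.1%). Calls were made in limma at adjusted p-values (Benjamini-Hochberg) under 0.05, and a fold change is the difference of mean log2(normalized count + 1). Most changes were small. A log2 fold change beyond 1 was reached by 229 of the higher genes (2%) and 230 of the lower genes (2.01%). LPS alone against EtOH gave 1169 differentially expressed genes of 11491 (10.2%), 654 higher (5.69%) and 515 lower (4.48%), with 246 raised (2.14%) and 41 lowered (0.357%) by more than 1 on the log2 scale. Without LPS_DMF replicate 2 and DMSO replicate 5 the DMF comparison gave 2057 calls, and it gave 1390 without DMSO replicate 6, 1720 without LPS_DMF replicate 3 and 1767 without DMSO replicate 5. The calls of the LPS comparison numbered 535 and 524 when EtOH replicates 4 and 6 were left out and 540 when LPS replicate 3 was.

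The genes fell into recognisable groups. The strongest rises were of 2 kinds, inflammatory mediators that LPS alone also raised, such as Cxcl2, and antioxidant genes that LPS alone barely moved, such as Srxn1. Of the 229 genes higher by more than 1, 68 were raised by LPS alone and 52 had an LPS effect shown to be small, with the 95% confidence interval of LPS against EtOH within 1.5-fold in either direction. Of the 230 genes lower by more than 1, 21 were lowered by LPS alone and 30 had such a small LPS effect, while 172 lay between these classes. The plot of both fold changes shows these groups.

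**Figure D1:**
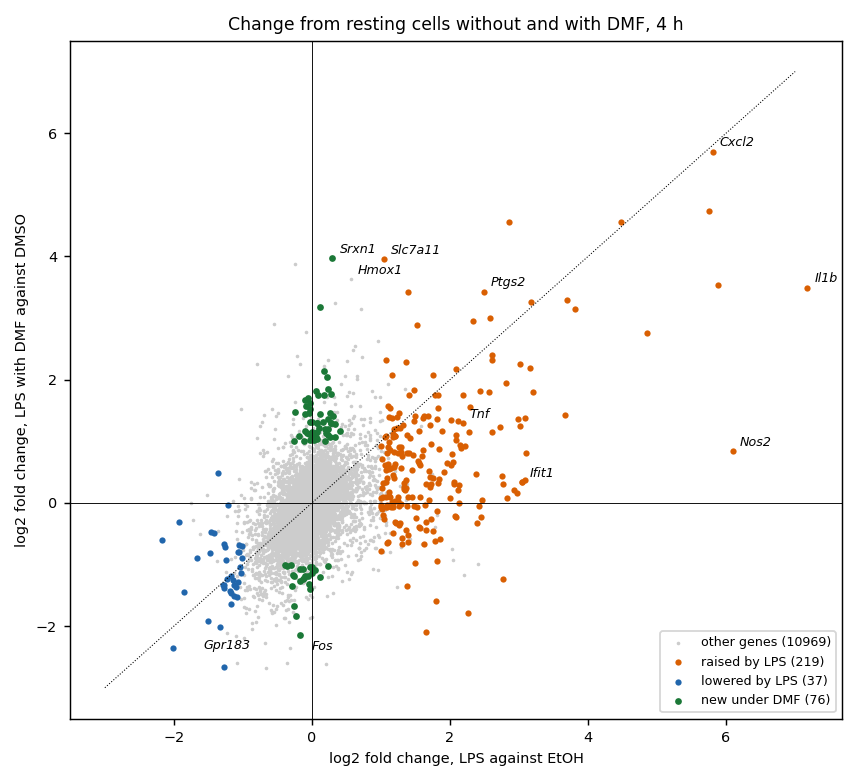
Log2 fold change of LPS against EtOH (horizontal axis) and of LPS with DMF against DMSO (vertical axis) for each gene tested in both, with 3 libraries in each group and equal change on the dotted line. The 219 genes raised by LPS alone (orange) spread from Cxcl2 near the line to values below 0, the 37 lowered genes (blue) mostly lie below 0, and the 76 genes new under DMF (green) rise or fall at almost no LPS effect.

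A gene was taken as new under DMF when it was called with a log2 fold change beyond 1 against DMSO, its LPS effect was small as above, and it was called in the same direction against LPS alone. These criteria chose 76 genes, 52 higher and 24 lower, and their values are given as a description. Their median log2 fold change over DMSO was 1.30 for the higher and -1.18 for the lower genes. All 52 and all 24 were also called without LPS_DMF replicate 2 and DMSO replicate 5. They had been chosen by calls on the same libraries, so this is no separate support. Repeating the choice with single libraries left out gave 57 to 86 new genes.

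Of the 52 new higher genes, 13 were on the list of Nrf2 targets and 5 on that of Atf4. These lists held 26 and 16 of the 11449 genes tested and were chosen with earlier results of these data known. Srxn1, which encodes sulfiredoxin and reactivates oxidised peroxiredoxins (GRCm39, chromosome 2, 151947436 to 151953296), had normalized counts of 9667, 10226 and 9679.5 in the 3 LPS_DMF libraries and of 749, 562 and 591 in the 3 DMSO libraries. Its rise was 15.6-fold, a log2 fold change of 3.97 (adjusted p = 5.69e-08, SE 0.11), whereas LPS alone gave 0.30. Gclm, the modifier subunit of the enzyme that limits glutathione synthesis, went from 845, 735 and 792 under DMSO to 7963, 6018 and 7627 under LPS with DMF. The log2 fold change of Gclm was 3.18 (adjusted p = 2.35e-07, SE 0.11), and that of Gclc, the catalytic subunit of the same enzyme, was 1.48 (adjusted p = 3.38e-06, SE 0.07). Libraries of the 2 groups did not overlap for any of these genes, a property that 42.4% of all genes tested had.

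Slc7a11, the cystine importer that feeds glutathione synthesis, and Hmox1, the haem oxygenase, rose as strongly but were not new by the criteria. Slc7a11 had normalized counts of 11899, 14289 and 14009 with LPS and DMF and of 909, 863 and 813 with DMSO, a log2 fold change of 3.95 (adjusted p = 2.37e-08, SE 0.09). LPS alone raised it by 1.04 (adjusted p = 0.00162). Hmox1 had 33789, 43070 and 45710 normalized counts with LPS and DMF and 3037, 3368 and 3413 with DMSO, a 12.4-fold rise with a log2 fold change of 3.63 (adjusted p = 1.68e-07, SE 0.12), and LPS alone changed it by 0.56 (adjusted p = 0.0472). Against LPS alone both were higher with DMF, by 2.75 (adjusted p = 4.20e-06) for Slc7a11 and 3.46 (adjusted p = 4.20e-06) for Hmox1.

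In the list of 26 Nrf2 target genes, 23 were called higher, 0 lower and 3 not called, against a background of 11.4% called higher. The median log2 fold change of the list was 1.47, beside 0.0022 over all genes tested, and in LPS against EtOH it was 0.11 with 3 genes called higher. Several of these genes had been named by the study from the same libraries, so the list is not independent evidence. Leaving out any 1 library kept 22 or 23 called. The thioredoxin genes rose, with Txnrd1 at 2.05 (adjusted p = 1.24e-06) and Txn1 at 0.61 (adjusted p = 0.00394), as did the peroxide-removing Prdx1 at 1.75 (adjusted p = 5.12e-06) and Cat at 1.70 (adjusted p = 8.93e-06). Genes of the pentose phosphate path and NADPH supply rose less, with Me1 at 1.30, Pgd at 1.15, G6pdx at 0.69 and Taldo1 at 0.58. The ferritin chains Ftl1 and Fth1 rose by 0.90 and 0.86. Gstm1, Mgst1 and Tkt were not called, with values of 0.33, 0.24 and 0.15. Nqo1, a widely used Nrf2 marker, was at very low levels, with 53.3, 26.4 and 32.8 normalized counts under DMF and 6.47, 5.01 and 8.03 under DMSO.

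Slc40a1, the iron exporter ferroportin, is not on the list and went from 155, 71.2 and 90.3 to 1722, 1353 and 1404 normalized counts, a log2 fold change of 3.88 (adjusted p = 1.27e-05, SE 0.24). Blvrb, which reduces biliverdin, is on the list and rose by 2.14 (adjusted p = 3.78e-06), as is the haem transporter Slc48a1, which rose by 1.82 (adjusted p = 8.73e-07). All 3 were higher than under LPS alone as well, by 3.40, 2.01 and 1.82.

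The regulators moved less than the targets. The transcript of Nrf2 itself, Nfe2l2, had 2206, 2001 and 2024 normalized counts under DMF and 2119.9, 1919.9 and 1884 under DMSO, so the libraries overlapped, with a difference of 0.07 (adjusted p = 0.546) on the log2 scale. Keap1 was not called either, at 0.28 (adjusted p = 0.0772). Bach1, a repressor that competes for the same DNA element, rose by 1.29 (adjusted p = 3.42e-04), and the small Maf partners Maff, Mafg and Mafk rose by 0.88, 0.80 and 0.78. In all, 5 of 7 regulators were called higher (beside 11.4% of all genes) and 0 lower, with a median of 0.78. Against LPS alone, 4 were higher and 1 lower, beside 4.55% and 6.51% of all genes. The regulator lower than under LPS alone was Nfe2l2, at -0.33 (adjusted p = 0.0389).

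The antioxidant response element can be read in the promoters of a few of these genes. In the 250 bases before and 50 after the start of transcription (GRCm39, GENCODE start), the strict motif TGANTCAGC, which contains the letters TGANTCA of AP-1 sites, was found on either strand in 4 of 52 new higher genes (7.69%) and 4 of 26 genes of the Nrf2 list (15.4%). It was found in 1.05% of all promoters of tested genes, and also in 3 of 22 genes of the interferon list (13.6%), 4.11% of LPS-raised genes and 4.17% of new lower genes, so it was not particular to the antioxidant genes. These stretches are shown because they belong to genes described here, with the match or its reverse complement in capitals and each read along the strand of its gene.
Srxn1 (chr2:151947389-151947418, plus strand): aaattcacccTGAGTCAGCggccgggcgcg
Prdx1 (chr4:116542653-116542682, plus strand): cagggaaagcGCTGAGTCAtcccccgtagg
Osgin1 (chr8:120163777-120163806, plus strand): aggggcccctGCTGACTCAcgcttatgaaa
Sqstm1 (chr11:50102991-50103020, minus strand): gaattcctctTGACTCAGCttcccaagggc
Srxn1 and Prdx1 are new under DMF and rose by 3.97 and 1.75. Osgin1, an oxidative stress response gene, rose by 2.25 (adjusted p = 2.18e-05), and Sqstm1, the autophagy receptor p62, by 2.31 (adjusted p = 2.27e-07), with LPS alone at 1.07 (adjusted p = 4.45e-04) for Sqstm1. The looser core TGANNNNGC was present in 44.2% of new higher genes and in 41.8% of all promoters. A match is a run of letters, not a shown binding site, and enhancers were not searched.

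Among other stress genes, Chac1, which degrades glutathione and is a target of Atf4, had normalized counts of 290.3, 559 and 570.3 under DMF and 102, 128 and 151 under DMSO. Its log2 fold change was 1.84 (adjusted p = 9.48e-04, SE 0.25). Trib3, a pseudokinase that dampens the Atf4 response, rose by 1.76 (adjusted p = 2.13e-04), and Atf4 and Atf5 themselves by 1.08 (adjusted p = 7.00e-05) and 1.15 (adjusted p = 5.62e-04). Of 16 genes tested on the Atf4 list, 11 were called higher (beside 11.4% of all genes) and 0 lower, with a median of 0.59 against 0.22 for LPS alone. Members of serine and folate synthesis differed, as Mthfd2 rose by 0.79 while Psat1, Phgdh and Shmt2 were not called, at 0.15, 0.12 and 0.10. Without single libraries the number of Atf4 list genes called was 8 to 12, and it was 9 without both LPS_DMF replicate 2 and DMSO replicate 5. The letters TGATGNAA of sites for Atf4 and its C/EBP partners were in the promoters of 3 of the 52 new higher genes (5.77%) and in 2.47% of all promoters.

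Chaperones rose by smaller amounts. Of 13 heat shock genes tested, 8 were called higher (beside 11.4%) and 0 lower, with a median of 0.61 beside 0.077 for LPS alone. The cytosolic chaperone Hsph1 went from 5586, 4824 and 4841 to 8059.8, 8681 and 9536 normalized counts, a log2 fold change of 0.78 (adjusted p = 4.08e-04, SE 0.09), and Dnajb1 rose by 0.64 (adjusted p = 0.0044). Hspa1a and Hspa1b, the inducible Hsp70 genes, had 2 and 0 reads over the 3 LPS_DMF libraries and were not tested. They are near copies of each other, and reads may be split between them or lost, so these counts do not show their level. Of 13 genes of the unfolded protein response of the endoplasmic reticulum, 7 were called higher (beside 11.4% of all genes), with a median of 0.33 and with Herpud1 at 1.13 (adjusted p = 0.00126) and Hspa5 at 0.56 (adjusted p = 0.00102). That count was 4 without DMSO replicate 5, and 4 without both it and LPS_DMF replicate 2. Against LPS alone 0 of the 13 were called by limma, with or without the replicate block, by edgeR or by DESeq2, 2 had an unadjusted p below 0.05 in each, and the median was 0.055. On the joint scale Herpud1 had a mean of 3011 normalized counts with LPS and 3140.3 with LPS and DMF, and Hspa5 24483 and 23707, beside 1406 and 16052 under DMSO. Xbp1 was not called, at 0.09 (adjusted p = 0.58). Slc30a1, a zinc exporter, was the only one called of 3 zinc genes tested and rose by 1.12 (adjusted p = 1.13e-04), while the metallothionein Mt1 was at 0.35 (adjusted p = 0.0977).

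Genes that fell anew included an immediate early factor. Fos, a subunit of AP-1 (GRCm39, chromosome 12, 85520664 to 85524047), had normalized counts of 109.6, 108 and 93.6 under LPS with DMF and of 398, 516 and 477 under DMSO. It was 4.43-fold lower, with a log2 fold change of -2.15 (adjusted p = 1.47e-05, SE 0.14), while LPS alone gave -0.17 (adjusted p = 0.425). Against LPS alone it was lower as well, at -2.28 (adjusted p = 2.45e-05). Its relatives differed. Fosl1 rose by 1.79 (adjusted p = 6.99e-05), Jund by 0.62 (adjusted p = 0.0086) and Atf3 by 1.35 (adjusted p = 0.00119), and Jun and Junb were not called, at -0.04 and -0.23. Of 16 immediate early genes tested, 5 were called higher and 1 lower, beside 11.4% and 12.1% of all genes. Without LPS_DMF replicate 2 the number called lower was 4.

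Among the other large new falls was Rin2, an exchange factor for the endocytic Rab5, which had 281, 324 and 234 normalized counts with LPS and DMF and 878, 910.3 and 876 with DMSO, a log2 fold change of -1.68 (adjusted p = 3.23e-05, SE 0.12). Kif7, a kinesin of the Hedgehog pathway, was 2.65-fold lower (adjusted p = 1.25e-04). Itpkb, an inositol trisphosphate kinase, and Cysltr1, the receptor for cysteinyl leukotrienes, changed by -1.27 (adjusted p = 4.35e-04) and -1.23 (adjusted p = 2.13e-04). Osbpl7, a sterol-binding protein, and Dlg3, a scaffold protein, changed by -1.35 (adjusted p = 2.39e-04) and -1.32 (adjusted p = 0.00681), with Dlg3 at under 35 normalized counts in the LPS_DMF libraries. The predicted gene 9930111J21Rik2 also fell, but it has a near copy, 9930111J21Rik1, and reads may be split between them.

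**Figure D2:**
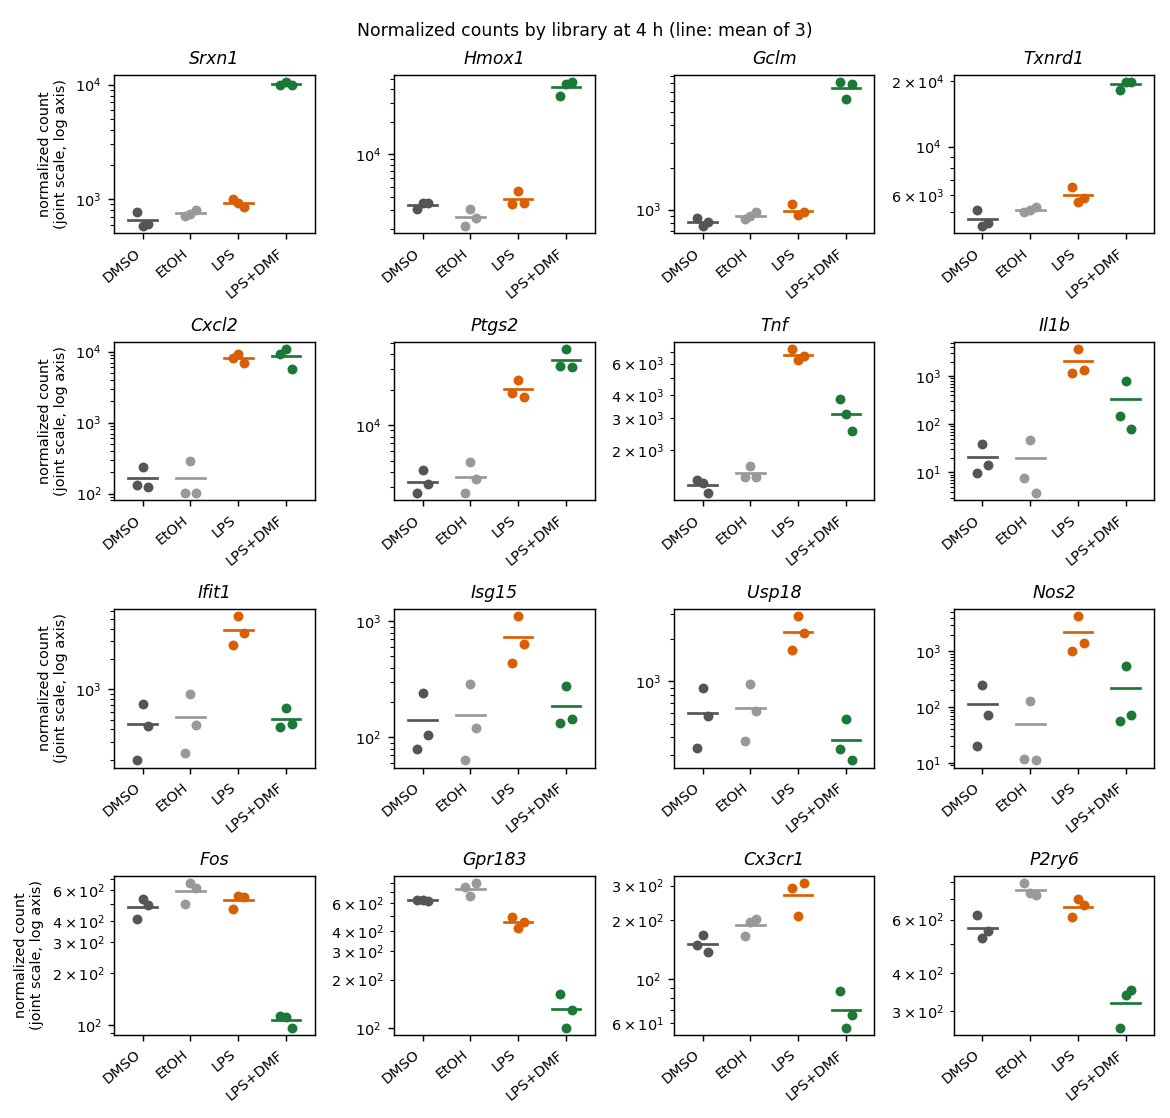
Normalized counts of 16 genes on a log axis, on a scale set jointly for the libraries of 4 h, with 1 point per library and a line at the mean of 3 libraries, for DMSO, EtOH, LPS and LPS with DMF. The antioxidant genes of the first row are highest in LPS with DMF, Cxcl2 and Ptgs2 stay high with DMF, Ifit1, Isg15, Usp18 and Nos2 overlap the vehicle groups, and the genes of the last row lie below both vehicles.

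LPS activation remained for a part of the genes that LPS alone raised. Of the 246 genes raised by LPS, 219 could be tested in the DMF comparison. Of these, 93 were still higher than under DMSO (42.5%, against 11.4% of all genes), 4 were lower and 122 were not called. Their median log2 fold change was 0.58 with LPS and DMF over DMSO and 1.55 with LPS over EtOH. In the direct comparison with LPS alone, where 11.1% of 11371 genes were called, 4.55% higher and 6.51% lower, 137 of the 219 genes were lower with DMF and 10 were higher. Over all genes that comparison gave 1257 calls, with 571 without LPS replicate 3, 588 without LPS_DMF replicate 3 and 799 without LPS replicate 1. Without LPS_DMF replicate 2 and DMSO replicate 5, 203 of the LPS-raised genes could be tested against DMSO, and 87 were called higher and 7 lower.

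The 219 genes sorted into 5 sets by these 2 tests. In 1 set, 55 genes were higher than DMSO and not called against LPS alone, with a median log2 fold change of 1.35 over DMSO and 1.41 for LPS over EtOH. In another, 10 genes were higher than both DMSO and LPS alone, with medians of 2.60 and 1.30, and these include Ptgs2, Il36g, Osm, Slc7a11 and Sqstm1. A further 28 genes were higher than DMSO but lower than LPS alone, with medians of 1.27 and 2.14. The largest set, 109 genes, was not raised over DMSO and was lower than LPS alone, with medians of 0.079 and 1.56. For 20 of these 109 genes the confidence interval of LPS with DMF against DMSO lay within 1.5-fold, and for 83 it ended below the interval of the LPS effect. The remaining 17 genes were decided by neither test. These sets rest on the fit without pairing. With the replicate number as a block in the comparison with LPS, 34 genes were higher than DMSO and not called against LPS, 48 were higher than DMSO and lower than LPS, 11 were higher than both and 115 were not raised over DMSO and lower than LPS. Of the 55 genes, Csf3, Nfkbiz, Nfkb1 and Clec4e were among those called lower than LPS with the block (adjusted p = 0.0086, 0.0045, 0.012 and 0.033). By library, the median level of the 219 genes over the DMSO mean was 0.51, 1.01 and 0.28 on the log2 scale in LPS_DMF replicates 1, 2 and 3, and -0.25, 0.28 and -0.03 in DMSO replicates 4, 5 and 6.

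The neutrophil-attracting chemokines were among the 55 genes, and neither Cxcl2 nor Cxcl3 was called against LPS with the block. Cxcl2 (GRCm39, chromosome 5, 91051730 to 91053797) had normalized counts of 8816, 10549 and 5466 with LPS and DMF and of 129, 233 and 118 with DMSO, the largest rise among the genes named, at 51.9-fold and a log2 fold change of 5.70 (adjusted p = 3.26e-06, SE 0.28). LPS alone gave 5.81 over EtOH, and LPS with DMF differed from LPS by 0.03 (adjusted p = 0.96). Cxcl3, another ligand of the receptor Cxcr2, went from 155, 183 and 113 to 1489, 2478 and 788 normalized counts and had a log2 fold change of 3.26 (adjusted p = 2.26e-04, SE 0.34), with 0.05 (adjusted p = 0.964) against LPS alone. Ccl3 and Ccl4, macrophage inflammatory chemokines, rose by 2.41 (adjusted p = 6.99e-05) and 2.25 (adjusted p = 1.26e-05). Ccl4 was lower than under LPS alone, at -0.81 (adjusted p = 0.00906). Ccl3 was at -0.55 against LPS alone, not called without the block (adjusted p = 0.101) but lower with it (adjusted p = 0.0089).

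The monocyte-attracting chemokines were nearer to resting levels. Ccl2 had 1562, 863 and 817 normalized counts under DMF and 669, 442 and 593 under DMSO. Its log2 fold change of 0.88 (adjusted p = 0.0248) was not called without DMSO replicate 5 (adjusted p = 0.074), without DMSO replicate 6 (0.063) or after a GC and length correction (0.11), and it was lower than under LPS alone, at -2.05 (adjusted p = 0.00157). Ccl7 and Ccl9 were not called, at 0.43 (adjusted p = 0.216) and 0.03 (adjusted p = 0.842), and were lower than under LPS alone, at -3.18 (adjusted p = 9.03e-04) and -1.54 (adjusted p = 2.01e-04). For Ccl9 the confidence interval of the log2 fold change over DMSO was -0.18 to 0.24. In all, 5 of 9 chemokines tested were called higher (beside 11.4% of all genes) and 0 lower, with a median of 0.88 beside 2.76 for LPS alone. The number called higher was 7 without LPS_DMF replicate 2 and DMSO replicate 5, with a median of 1.11. With 15 chemokines on the list, 6 had too few reads to test, among them Ccl20 with 15 reads over the LPS_DMF libraries and 1 over the DMSO libraries.

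Interleukin-1 family genes were partly kept. Il1b, which encodes the precursor of interleukin-1 beta, had normalized counts of 142, 763 and 77.2 under LPS with DMF and of 9.24, 38.1 and 14.1 under DMSO, with replicate 2 far above the others of its group. The log2 fold change was 3.49 (adjusted p = 0.00942, SE 0.75), while LPS alone gave 7.17, and LPS with DMF was lower than under LPS alone, at -3.09 (adjusted p = 0.0281). The rise over DMSO was 3.09 (adjusted p = 6.86e-05) without LPS_DMF replicate 2 and DMSO replicate 5. Il1a was similar, with 3.54 (adjusted p = 6.48e-04) over DMSO and -2.24 (adjusted p = 0.00888) against LPS alone. The receptor antagonist Il1rn rose by 2.16 (adjusted p = 8.07e-05) and was not called against LPS alone, at -0.47 (adjusted p = 0.189), although it was lower with the replicate block (adjusted p = 0.037). Il36g, a cytokine of the same family, went from 39.7, 68.2 and 43.2 to 1585, 1142 and 889.7 normalized counts and was higher than under LPS alone by 1.14 (adjusted p = 0.0067). Il36a had 145, 97.1 and 69.5 normalized counts under DMF and 1.85, 8.02 and 2.01 under DMSO, and -0.62 (adjusted p = 0.171) against LPS alone, where the replicate block gave an adjusted p of 0.039.

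Tnf, a main inflammatory cytokine of microglia, was intermediate. It had 3714, 3048 and 2448 normalized counts under LPS with DMF and 1319, 1274 and 1112 under DMSO, a log2 fold change of 1.30 (adjusted p = 2.58e-04, SE 0.14). LPS alone raised it by 2.18, and LPS with DMF was lower than under LPS alone, at -1.10 (adjusted p = 0.0014). Csf3, the granulocyte colony-stimulating factor, had 101, 132 and 41.5 and 0, 5.01 and 4.01 normalized counts in the 2 groups, a log2 fold change of 4.74 (adjusted p = 0.00118, SE 0.68) that depends on the pseudocount because the DMSO libraries were near 0. Osm, an interleukin-6 family cytokine, rose 2.63-fold (adjusted p = 8.72e-05) and was higher than under LPS alone by 0.47 (adjusted p = 0.0347). Of 12 cytokines tested out of 17, 7 were called higher (beside 11.4%) and 0 lower, with a median of 1.03 beside 1.69 for LPS alone. Part of this list and of the chemokines had been named by the study from these libraries. Il6 was not tested, with 24, 7 and 3 reads in the LPS_DMF libraries and 4, 3 and 2 in the DMSO libraries.

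Enzymes of activation split in the same way. Ptgs2, the inducible cyclooxygenase of prostaglandin synthesis, had normalized counts of 30431, 42753 and 30031 with LPS and DMF and of 2565, 4044 and 3029 with DMSO, a log2 fold change of 3.43 (adjusted p = 4.07e-06, SE 0.18). It was above LPS alone by 0.82 (adjusted p = 0.0152). Ptges, the prostaglandin E synthase of the next step, rose by 1.46 (adjusted p = 6.44e-04). Acod1, which makes itaconate, went from 451, 938 and 483 to 5745, 8101 and 4185 normalized counts, by 3.30 (adjusted p = 8.77e-05, SE 0.29), and was not called against LPS alone, at -0.52 (adjusted p = 0.214), although it was lower with the replicate block (adjusted p = 0.015). Nos2, the inducible nitric oxide synthase, had 54.3, 520.4 and 69.5 normalized counts under DMF and 19.4, 244 and 70.3 under DMSO, with the groups overlapping and a log2 fold change of 0.84 (adjusted p = 0.549). LPS alone gave 6.10 (adjusted p = 0.00472) for Nos2, and LPS with DMF was lower than under LPS alone, at -3.81 (adjusted p = 0.0159), and its confidence interval over DMSO was wide, -1.28 to 2.96. Nos2 was at 0.71 over DMSO (adjusted p = 0.29) without LPS_DMF replicate 2 and DMSO replicate 5. In all, 6 of 13 activation enzymes tested were called higher (beside 11.4% of all genes) and 0 lower, with a median of 0.76 beside 0.96 for LPS alone.

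Most genes of NF-kB and its feedback inhibitors stayed above resting levels at smaller sizes. Nfkbiz, an inducible co-activator of a subset of NF-kB targets, had 774, 1518 and 973 normalized counts with LPS and DMF and 206, 261 and 226 with DMSO, a log2 fold change of 2.18 (adjusted p = 1.43e-04, SE 0.21). The ribonuclease Zc3h12a, which degrades cytokine mRNAs, rose by 1.81 (adjusted p = 1.21e-04), and the subunits Nfkb1, Nfkb2 and Relb by 0.91, 0.71 and 0.93. Nfkbia, which encodes the inhibitor I-kappa-B alpha, was at 0.61 (adjusted p = 0.0491), a call lost in 7 of 15 alternatives, with adjusted p-values of up to 0.16, the largest without DMSO replicate 4, and also lost without DMSO replicate 6 and without LPS_DMF replicates 1 or 2. Tnfaip3, the deubiquitinase A20, was not called, at 0.32 (adjusted p = 0.465), and was lower than under LPS alone, at -1.02 (adjusted p = 0.03). Of 17 genes, 11 were called higher (beside 11.4% of all genes) and 0 lower, with a median of 0.64 beside 1.26 for LPS alone. Without single libraries 8 to 12 were called higher and 0 or 1 lower. Without both LPS_DMF replicate 2 and DMSO replicate 5, 11 were higher and 1 lower. The gene lower in that fit was Nfkbie, which encodes an NF-kB inhibitor, at -0.78 (adjusted p = 0.0153). Of 15 surface receptors of activation tested, 6 were called higher (beside 11.4%) and 0 lower, with a median of 0.20 beside 1 for LPS alone. The lectin Clec4e rose by 1.74 (adjusted p = 7.82e-05), and Cd40 by 0.61 (adjusted p = 0.0179). The call for Cd40 was lost without DMSO replicate 4 and without LPS_DMF replicate 1, with an adjusted p of up to 0.058. Icam1, Tlr2 and the checkpoint ligand Cd274 were not called, at -0.03, 0.20 and -0.06, and were lower than under LPS alone, at -0.99, -1.32 and -1.22.

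Most interferon genes were not told apart from resting cells. Of 22 interferon genes tested, 1 was called higher than DMSO, 2 lower and 19 not called, beside 11.4% higher and 12.1% lower over all genes. With LPS alone 16 were called higher (beside 5.69% of all genes). In LPS with DMF 20 were called lower than in LPS (beside 6.51%). The median log2 fold change was 0.18 over DMSO, 1.74 for LPS over EtOH and -1.92 against LPS. Ifit1, an antiviral RNA-binding protein (GRCm39, chromosome 19, 34618271 to 34627409), had normalized counts of 405, 635 and 433 under LPS with DMF and of 190.4, 695 and 421 under DMSO. These overlapped, at 0.33 (adjusted p = 0.555) on the log2 scale with a confidence interval of -0.52 to 1.19, whereas LPS alone gave 3.04 (adjusted p = 0.00407) and LPS with DMF was lower than under LPS alone, at -2.90 (adjusted p = 2.01e-04). Usp18, which removes the ubiquitin-like Isg15 from proteins, was at -0.59 (adjusted p = 0.223) over DMSO and at -2.57 (adjusted p = 4.73e-04) against LPS. Rsad2, the antiviral enzyme viperin, was the member that stayed higher, with 652, 1096 and 684 normalized counts against 190.4, 514 and 285, a log2 fold change of 1.37 (adjusted p = 0.0134, SE 0.32). Irf8, a lineage factor of macrophages, and Ifi47, an interferon-induced GTPase, were lower than under DMSO, at -0.76 (adjusted p = 0.00178) and -0.79 (adjusted p = 0.00593). Cxcl10, a chemokine induced by interferon, was at 0.81 (adjusted p = 0.124) over DMSO and -2.21 (adjusted p = 0.00103) against LPS. Without LPS_DMF replicate 2 and DMSO replicate 5, Cxcl10 was called higher than DMSO, by 1.11 (adjusted p = 0.0069), while Ifit1 was not, at 0.56 (adjusted p = 0.15). Genes such as Ifit3, Mx1 and the Gbp family have close copies, and reads may be split among them.

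The spread of interferon genes between libraries of one group was as large as many of these differences. The median of the list over the DMSO mean was -0.66, 0.84 and -0.08 in DMSO replicates 4, 5 and 6, and -0.06, 0.79 and -0.21 in LPS_DMF replicates 1, 2 and 3, on the log2 scale. Irf7, the factor that amplifies the response, had 479, 2474 and 816 normalized counts in the DMSO libraries and 634, 2482 and 674 in the LPS_DMF libraries. On the joint scale it had 448, 2470 and 829 in EtOH replicates 4, 5 and 6, and 1637.5, 4495.5 and 2099 in LPS replicates 1, 2 and 3. Deviations of LPS_DMF replicate 2 and LPS replicate 2 from their group means correlated at 0.46 over 9845 genes. These 2 were taken as the same repeat of the experiment. Whether the DMSO and EtOH libraries high in these genes share that repeat was not tested. The fit against DMSO held no term for the repeat, so an interferon gene not called there is not shown to be at its resting level. Without DMSO replicate 5, 4 interferon genes were called higher and 2 lower, with a median of 0.61. Without DMSO replicate 4 the median was -0.28, with 1 called higher and 2 lower. Without both LPS_DMF replicate 2 and DMSO replicate 5, 3 of 21 were called higher and 2 lower, and the median was 0.17. The Nrf2 list moved far less between libraries, at 1.60, 1.55 and 1.52 in the LPS_DMF libraries and 0.10, -0.10 and 0.01 in the DMSO libraries.

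**Figure D3:**
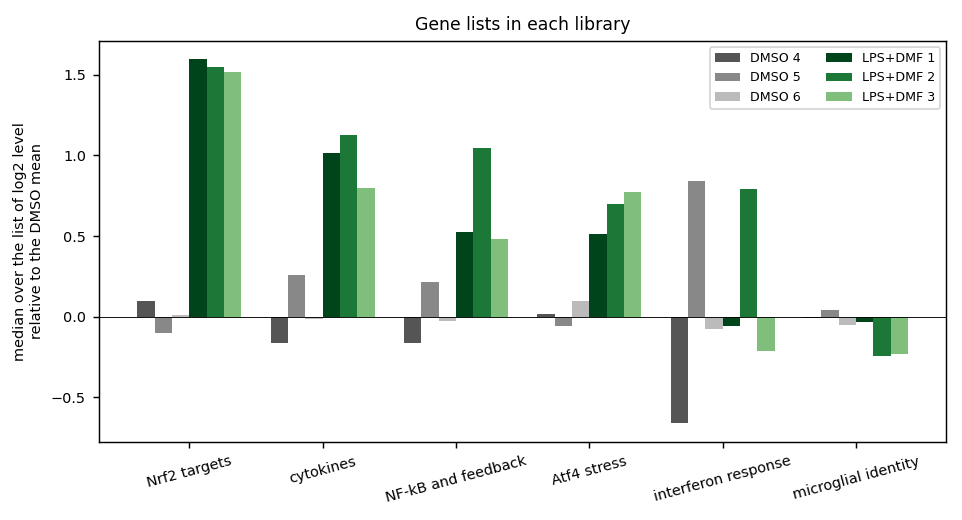
Median over the genes of 6 lists of the log2 level in each library relative to the mean of the DMSO libraries (vertical axis), with 1 bar per library, DMSO in grey and LPS with DMF in green. The Nrf2 bars stand at 1.52 to 1.60 in all LPS_DMF libraries, whereas the interferon bars are high in 1 library of each group.

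Promoter letters were counted in the sets of LPS-raised genes. The letters of interferon-stimulated response elements (GAAA, any 2 bases, GAAA, on either strand) were present in 31 of the 109 genes that were not raised over DMSO and were lower than LPS alone (28.4%), in 4 of the 93 genes still raised (4.3%) and in 3.5% of all promoters. A strict NF-kB motif (GGGA, any 2 bases, TTCC) was present in 5.5% of the first and 6.45% of the second group, beside 1.58% of all promoters. The looser NF-kB core (GGG, any 5 bases, CC), which contains the strict motif, was in 62.6% of the LPS-raised genes and 63.4% of all promoters. The following stretches show the interferon motif in genes not called against DMSO with all libraries and then the NF-kB motif in genes still above DMSO (GRCm39, along the strand of the gene), with the match or its reverse complement in capitals.
Ifit1 (chr19:34618175-34618204, plus strand): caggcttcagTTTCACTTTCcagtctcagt
Isg15 (chr4:156285328-156285357, minus strand): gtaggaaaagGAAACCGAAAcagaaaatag
Usp18 (chr6:121222796-121222825, plus strand): ggatctagggGAAAACGAAAgcttggcggt
Cxcl10 (chr5:92496942-92496971, minus strand): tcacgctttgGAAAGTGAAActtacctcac
Cxcl2 (chr5:91051651-91051680, plus strand): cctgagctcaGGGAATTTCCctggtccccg
Cxcl3 (chr5:90933877-90933906, plus strand): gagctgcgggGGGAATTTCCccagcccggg
Nfkbia (chr12:55539442-55539471, minus strand): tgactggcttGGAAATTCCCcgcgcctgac
Isg15, which encodes the ubiquitin-like modifier, had 128, 270.2 and 139.9 normalized counts with LPS and DMF and 77.6, 234 and 101 with DMSO, at 0.46 (adjusted p = 0.424) over DMSO and -1.95 (adjusted p = 0.00805) against LPS. It holds 3 overlapping matches, of which 1 is shown. Ifit1 and Usp18 each hold another match that is not shown, and Cxcl2 and Cxcl3 each hold an overlapping match on the other strand. The strict motifs were chosen after the results were known, and the groups were formed by the expression results, so these shares are a description.

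Few LPS-raised genes were called lower than DMSO, 4 of 219 beside 12.1% of all genes. They were Dtx3l, Trim14, Slc28a2 and Batf2, and 3 of them are named because the count is small and not by the rule. Batf2, a factor induced by interferon, was at -1.59 (adjusted p = 0.0415), Slc28a2, a nucleoside transporter, at -1.35 (adjusted p = 0.00212), the ubiquitin ligase Dtx3l at -0.64 (adjusted p = 0.0424) and Trim14 at -0.79 (adjusted p = 0.0222). Without single libraries the number called lower ranged from 1, without DMSO replicates 5 or 6 or LPS_DMF replicate 3, to 9, without LPS_DMF replicate 2, and it was 2 without LPS_DMF replicate 1 or EtOH replicate 4. Slc28a2 has a near copy, Slc28a2b, at -2.09 (adjusted p = 0.0783). Gbp4, Asb2 and Parp11 had log2 fold changes of -1.79, -1.24 and -0.97 that were not called. The 27 LPS-raised genes that could not be tested here had 2791 reads in the 3 LPS libraries, 496 in the EtOH libraries, 485 in the LPS_DMF libraries and 424 in the DMSO libraries. None of these 27 genes exceeded 40 reads over the LPS_DMF libraries.

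Most genes that LPS alone lowered were low with DMF too. Of 37 tested, 23 were lower than DMSO, 0 were higher and 14 were not called, beside 12.1% called lower over all genes, and the median was -1.19 over DMSO and -1.23 for LPS over EtOH. Tlr5, the flagellin receptor, had 31.3, 45.4 and 37.6 normalized counts with LPS and DMF and 116, 196 and 134 with DMSO, a log2 fold change of -1.92 (adjusted p = 4.77e-04) beside -1.51 for LPS alone. Arhgef18, an activator of RhoA, was at -2.35 (adjusted p = 1.58e-04) beside -2.01. Cxcr4, the receptor for Cxcl12, was an exception. It was lower with LPS alone, at -1.36 (adjusted p = 0.0017), whereas with DMF it had 384, 236 and 464 normalized counts against 249, 269 and 233 in DMSO, at 0.48 (adjusted p = 0.133), and was higher than under LPS alone by 1.57 (adjusted p = 0.00333). Without LPS_DMF replicate 2 and DMSO replicate 5, Cxcr4 was called higher than DMSO, by 0.81 (adjusted p = 0.0025).

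Among the largest falls of the comparison was that of a chemotactic receptor. Gpr183, the receptor for oxysterols that guides immune cells, had normalized counts of 157, 97.1 and 124 with LPS and DMF and of 612, 606 and 595 with DMSO. It was 4.85-fold lower, at -2.28 (adjusted p = 2.78e-05, SE 0.16), with -0.69 (adjusted p = 0.00376) for LPS alone and -1.82 (adjusted p = 3.37e-04) against LPS. Zfp395, a zinc finger factor, had 14.6, 34.8 and 25.1 and 91.5, 237 and 148 normalized counts, a log2 fold change of -2.60 (adjusted p = 0.00126, SE 0.38), and was not called against LPS alone, at -0.51 (adjusted p = 0.595). The ubiquitin ligase Fbxo32, a target of FoxO factors, was at -2.05 (adjusted p = 4.91e-04), the vesicle GTPase Rab3a at -1.95 (adjusted p = 7.18e-05), Trerf1 at -1.93 (adjusted p = 3.12e-05), Prtg at -2.19 (adjusted p = 9.62e-05) and the Wnt pathway gene Frat1 at -1.98 (adjusted p = 6.62e-04).

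Of 14 genes of homeostatic microglia tested, 4 were lower (beside 12.1% of all genes), 0 higher and 10 not called, with a median of -0.21. Without LPS_DMF replicate 2, 5 were lower and 1 higher. Without both that library and DMSO replicate 5, 4 were lower and 1, Cxcr4, was higher. Cx3cr1, the fractalkine receptor, had 84.6, 54.9 and 63.7 normalized counts with LPS and DMF and 145, 161 and 132 with DMSO, at -1.12 (adjusted p = 0.00292, SE 0.19). It was at 0.50 (adjusted p = 0.0892) for LPS alone and lower than under LPS alone, at -1.93 (adjusted p = 6.46e-04). P2ry6, a nucleotide receptor that triggers phagocytosis, was at -0.83 (adjusted p = 0.00224) and lower than under LPS alone, at -1.06 (adjusted p = 0.00129). Tmem119 was at -1.39 (adjusted p = 0.00385), with LPS alone at -1.28, and both it and P2ry12, at -0.71 (adjusted p = 0.0454), were below 80 normalized counts in every library. The call for P2ry12 was lost in 8 of 14 alternatives, among them each of the 6 libraries left out, with an adjusted p of up to 0.18. Csf1r, Aif1 and Trem2 were not called, at -0.35, -0.20 and -0.09, although Csf1r was called without LPS_DMF replicate 2 and DMSO replicate 5, at -0.38 (adjusted p = 0.027). Mbp, of the oligodendrocyte list, was at -0.52 (adjusted p = 0.0143), with 0.052 for the adjusted p without DMSO replicate 4, and is known in other cell types too, and the defining oligodendrocyte genes Mog and Sox10 had 1 read each over the LPS_DMF libraries. The part of other cells in these results was not tested.

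The remaining lists moved little. Of 18 cell division genes, 1 was called higher and 0 lower, beside 11.4% and 12.1% of all genes, with a median of 0.046. The gene called higher was Aurka, at 0.36 (adjusted p = 0.026). Aurka was not called without DMSO replicates 5 or 6 or LPS_DMF replicates 1 or 3, with an adjusted p of up to 0.12. Of 12 p53 targets, 4 were higher and 2 lower, beside 11.4% and 12.1% of all genes, and without single libraries 2 or 3 were higher, 2 without DMSO replicate 4, and 1 lower without DMSO replicate 6, with the death receptor Fas at 1.24 (adjusted p = 0.011) and Sesn1 at -0.75 (adjusted p = 0.00249), while the cell cycle inhibitor Cdkn1a was at 0.11 (adjusted p = 0.418). Of 19 sterol synthesis genes, 5 were higher and 1 lower, beside 11.4% and 12.1% of all genes. However, none was called higher without DMSO replicate 6, and 1 or 2 were without DMSO replicate 4 or LPS_DMF replicates 2 or 3.

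**Figure D4:**
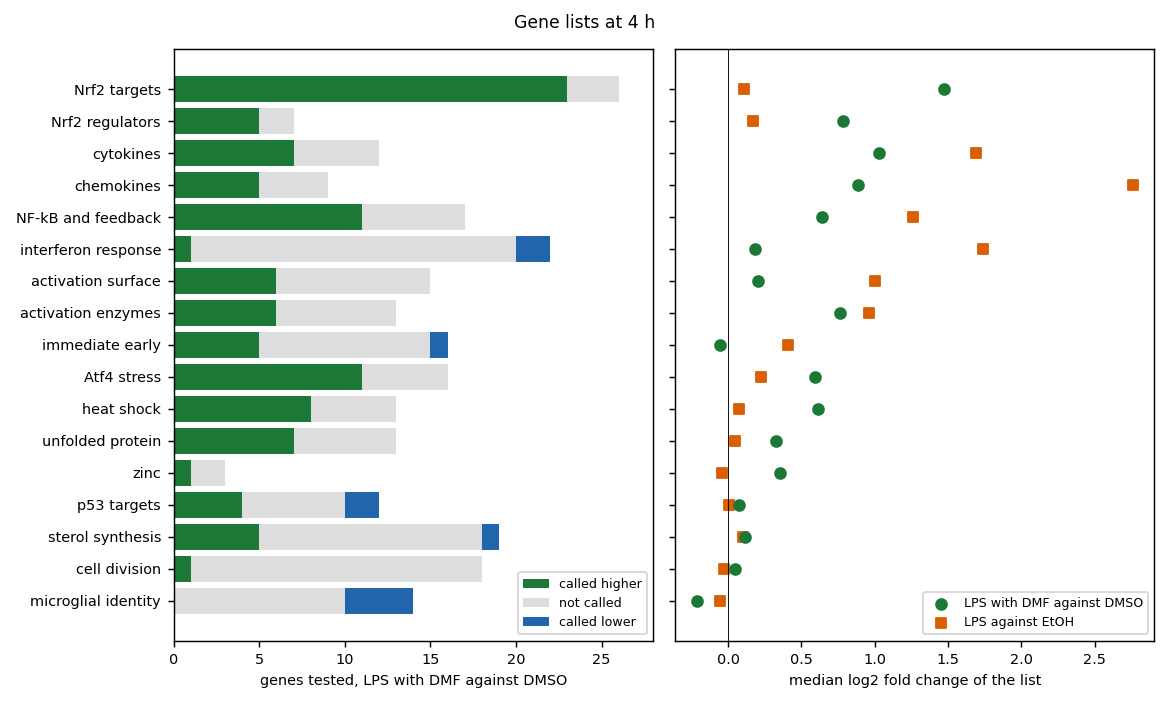
Left, the number of genes tested in each list that were called higher, lower or not called in LPS with DMF against DMSO. Right, the median log2 fold change of each list in that comparison (green circles) and in LPS against EtOH (orange squares), where Nrf2 targets stand at 1.47 and 0.11 and the interferon response at 0.18 and 1.74.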

How the data were processed

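Poly(A) RNA of BV-2 cells was sequenced by the study in 3 repeats of each condition. Nothing in the sources used here says more of how far repeats were separate cultures, so p-values measure the spread between these samples. Per the submitters' processing notes the tools were FastQC 0.12.1, cutadapt 4.4, Trimmomatic 0.39, HISAT2 2.2.1, HTSeq 2.0.3, R 4.3.1 and DESeq2 1.40.2, with GRCm39 and Ensembl 110. The strand setting of counting is not given in the sources used here, so reads of overlapping antisense genes cannot be told apart. The deposited values are signal, namely read counts that the authors divided by DESeq2 size factors set for each table of 6 libraries. Whole reads were recovered from them (100% of 826932 values within 0.01 of a whole number). The authors' fold change and p-value columns in the same tables hold their own comparisons and were not used.

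Within each table, log2(normalized count + 1) was fitted with limma 3.58.1 (lmFit and eBayes with trend) in R 4.3.3 on its 6 libraries, for genes with at least 10 normalized counts in at least 3 libraries. Adjusted p-values are Benjamini-Hochberg values over all genes tested, and a gene was called below 0.05. The pairs of replicates differed by more than counting noise (chi-square per degree of freedom 7.27 to 29.1). Levels across groups used size factors set jointly over the 18 libraries of 4 h. Groups came from the labels. DMSO and LPS_DMF libraries share no replicate number. For LPS_DMF against LPS, deviations of same-numbered libraries from their group means correlated at 0.17, 0.46 and 0.35 over 9845 genes. Libraries with different numbers correlated at -0.43 to 0.31. LPS replicate 1 correlated more with LPS_DMF replicate 3 (0.31) than with LPS_DMF replicate 1 (0.17), so these values do not settle the pairing of replicate 1. The numbers were taken to pair the libraries, as the repeat of the experiment.

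Genes were named by rule: the 10 largest rises and 10 largest falls among called genes with a mean of at least 50 and groups that did not overlap; the members of the lists; the 5 highest and 5 lowest of the LPS-raised genes; the 8 largest rises and 8 largest falls of the new genes; and the 3 highest and 3 lowest of the LPS-lowered genes. The comparison, the lists and the rule were chosen with earlier results of these data known. Promoter windows were read from GRCm39 at GENCODE starts (18669 of 18695 genes matched). Alternatives were edgeR 4.0.16 and DESeq2 1.42.0 on recovered reads, other scaling, pseudocounts, filters and thresholds, single libraries left out, and a trend on GC content and length removed. The list counts without single libraries, the strict motifs, the block applied to the sets of LPS-raised genes and the fit without LPS_DMF replicate 2 and DMSO replicate 5 were chosen after seeing the data. The fits were tested on simulated data.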

Additional observations from a re-analysis of the deposited data

How the results depend on the processing

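The count of genes called in LPS with DMF against DMSO ranged from 1390 to 2692 when single libraries were left out, that in LPS against EtOH from 524 to 1176 and that in LPS with DMF against LPS from 571 to 1275. The LPS-raised genes still higher under DMF ranged from 78 to 98 and the new genes from 57 to 86 in the same way. Requiring a log2 fold change beyond 1 gave 459, 287 and 409 calls in the 3 comparisons, and the share called higher went from 55.9 to 85.7% in LPS against EtOH and from 41.1 to 29.8% in LPS with DMF against LPS. A fit of all 18 libraries of 4 h, with 1 shared estimate of the spread, called 3839 genes in LPS with DMF against DMSO and 2246 against LPS. A list of LPS-raised genes with any called rise in place of one beyond 1 held 298 genes still higher under DMF, and a limit of 1 in place of log2 1.5 on the LPS effect gave 163 new genes. The replicate block gave 1714 calls in LPS with DMF against LPS and 77 new genes, moved the LPS-raised genes higher than DMSO and not called against LPS from 55 to 34, and added calls for 26 named genes in that comparison. It could not be used against DMSO, whose libraries share no number with LPS_DMF. edgeR called 2661 genes and DESeq2 2818 in LPS with DMF against DMSO. Of 139 named genes called there, 111 were called under every alternative in which they were tested, and no named gene turned its direction. Some of the 111 were not tested in all 15 alternatives, such as Csf3 and Nqo1, tested in 11. The cause of these shifts was not tested. Depth limits what can be said of genes such as Il6 and Ccl20, with at most 40 reads over the LPS_DMF libraries.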
